A study of Homo sapiens with 6 samples.

Results

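The genes of the mitochondrial ribosomal proteins were followed in 22Rv1 cells after knockdown of MED12. Members were chosen by name, as every row of the count table whose symbol is MRPL or MRPS, a number and, in some, a letter. This gave 78 of 62703 genes, 49 with large subunit names (MRPL) and 29 with small subunit names (MRPS). The expression filter kept 76 of them, 48 MRPL and 28 MRPS, among 17901 genes tested. The members left out were MRPL53, which had 0 counts in all 6 libraries, and MRPS24, which had 4, 2 and 10 counts in siCtrl and 14, 2 and 0 in siMED12.

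22Rv1 is an established human prostate carcinoma cell line that expresses the androgen receptor, and MED12 is part of Mediator, the coactivator between DNA-bound transcription factors and RNA polymerase, and belongs to its kinase module. All cells were transfected with 25 pmol of a pool of siRNAs 24 h after seeding, received fresh medium 6 h later, and were collected 3 days after transfection. The siCtrl group (n = 3) received a non-targeting pool and the siMED12 group (n = 3) a pool against MED12. With 1 line and 1 pool against MED12, loss of MED12 and effects of that pool on other transcripts cannot be told apart. Poly(A) RNA was sequenced in strand-specific libraries, and the methods of the study describe replicates in general as biological. The labels do not say what a replicate number stands for (a culture, a passage or a day), so p-values measure the spread between these libraries. Where a fit uses the replicate number, p-values measure the spread left after differences between replicate numbers are taken out. The comparison asks which transcripts change when MED12 is depleted in these cells.

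The mitochondrial ribosome translates the few mRNAs that are transcribed from mitochondrial DNA, all of which encode subunits of the oxidative phosphorylation complexes. Its rRNAs are encoded in mitochondrial DNA, but all of its proteins are encoded in the nucleus, made in the cytosol and imported. The large subunit forms the peptide bond and holds the exit tunnel, and the small subunit binds the mRNA and decodes it. Many of its proteins have counterparts in bacteria, and those that have none are called mitochondria-specific here. The proteins of MRPS18A and MRPS18B are also counted as mitochondria-specific, although they are related to bacterial S18. Names can mislead: the proteins of MRPS30 and MRPS18A sit in the large subunit. A name alone also does not show that a protein is part of the ribosome.

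Libraries held between 16136699 and 17012788 counts in genes, of which the members took between 0.433% and 0.511%. Levels are given as CPM, the counts of a gene relative to all counts of its library, scaled to library sizes adjusted by TMM, edgeR's composition factor. MED12 itself was measured at 67.8, 77.7 and 72.6 CPM in siCtrl and at 23.9, 15.0 and 30.1 CPM in siMED12, a log2 fold change of -1.66 (SE 0.23, adjusted p = 0.0314, edgeR's quasi-likelihood test). Markers of cell types are given as CPM of total counts, without the TMM factor. All 10 luminal prostate markers averaged at least 10 CPM, their sum running from 2542 to 3034 CPM in siCtrl and from 2246 to 2676 CPM in siMED12. Of 9 markers of other cell types, 7 averaged below 1 CPM, the exceptions being ALB and COL1A1, and their sum ran from 195 to 328 CPM in siCtrl and from 145 to 261 CPM in siMED12. Transcripts of mitochondrial DNA took from 4.43% to 10.1% of counts, and this share followed the replicate number and not the group. The part of these differences in the results was not tested.

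The transcripts of mitochondrial ribosomal proteins were lower in siMED12 than in siCtrl by a small and similar amount in each pair of libraries. Summed over the 76 members, they stood at 5020, 5182 and 4952 CPM in siCtrl and at 4419, 4503 and 4372 CPM in siMED12, so that all 3 siMED12 libraries lay below all 3 siCtrl libraries. Between libraries of the same replicate number the sum differed by -11.97%, -13.1% and -11.7%. In these bulk samples, a lower content of mitochondrial ribosome mRNA per cell and a changed mix of cells cannot be told apart.

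Member by member, 67 of 76 log2 fold changes were below 0, against 47.5% of all genes tested. The median was -0.17 over the members and 0.018 over all genes tested. The quartiles of the members were -0.26 and -0.10, and those of all genes were -0.18 and 0.21. The lowest value in the fit with a term for the replicate number (the blocked fit) was -0.52 (MRPL4) and the highest 0.13 (MRPL49). CPM was lower in siMED12 in all 3 pairs for 56 members (73.7%, against 27% of all genes) and higher in all 3 pairs for 2 members (2.63%, against 30.6% of all genes). The 3 siMED12 libraries lay below the 3 siCtrl libraries without overlap for 29 members (38.2%, against 10.9% of all genes), and above them for 1 member, MRPL49 (1.32%, against 11.2%).

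**Figure D1:**
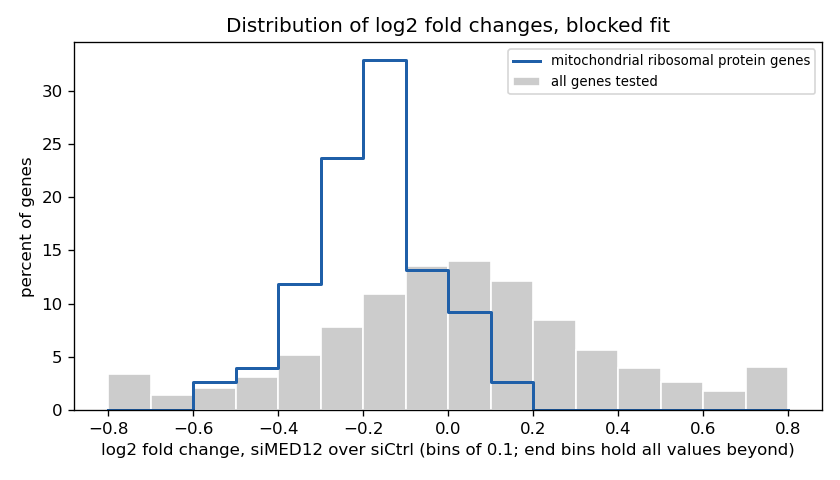
Distribution of log2 fold changes (siMED12 over siCtrl, x axis, bins of 0.1) for the 76 mitochondrial ribosomal protein genes (line) and all 17901 genes tested (grey bars), as a percentage of each set on the y axis. The members peak between -0.2 and -0.1, where 32.9% of them and 10.9% of all genes lie, and none lies above 0.2.

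How many of these changes passed the test depended on whether the replicate number was used. With treatment alone in edgeR's quasi-likelihood fit, no member passed an adjusted p of 0.05 in either direction, against 0.413% of all genes called lower and 0.151% called higher. In that fit 20 members (26.3%) had an unadjusted p under 0.05 and were lower, against 7.93% of all genes, and 0 were higher, against 7.65%. DESeq2's Wald test called 6 members (7.89%) lower in the same design, against 3.42% of the 14428 genes to which it gave an adjusted p, and 0 higher, against 2.29%. With the replicate number as a block, which the pairing of the libraries allows, 41 members (53.9%) were called lower, against 16.2% of all genes, and 1 member (1.32%) was called higher, against 17.1% of all genes. The remaining 34 passed in neither direction. The common dispersion was 0.0368 without the block and 0.00228 with it. The members were also more highly expressed than the average gene, with a median of 50.7 CPM in siCtrl against 18.2 CPM over all genes tested, so a given fold change was easier to detect in them.

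Both subunits took part. Among large subunit names, 23 of 48 (47.9%) were called lower in the blocked fit and 1 higher, and among small subunit names 18 of 28 (64.3%) were called lower and 0 higher. Of all genes, 16.2% were called lower and 17.1% higher. In edgeR's fit without the block, 0 of either were called. At an unadjusted p under 0.05 in that fit, 27.1% of MRPL and 25% of MRPS genes were lower, against 7.93% of all genes. Groups lay apart with siMED12 lower for 39.6% of MRPL and 35.7% of MRPS genes, against 10.9% of all genes. The medians were alike, -0.17 for MRPL and -0.17 for MRPS. Summed CPM of the MRPL genes was 2984, 3104 and 2969 in siCtrl and 2645, 2698 and 2637 in siMED12. That of the MRPS genes was 2035, 2078 and 1983 in siCtrl and 1774, 1805 and 1735 in siMED12. The MRPS genes made up 40.5%, 40.1% and 40.1% of the members' sum in siCtrl and 40.1%, 40.1% and 39.7% in siMED12, and these ranges overlap. Whether the subunits differ in their response was not tested.

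**Figure D2:**
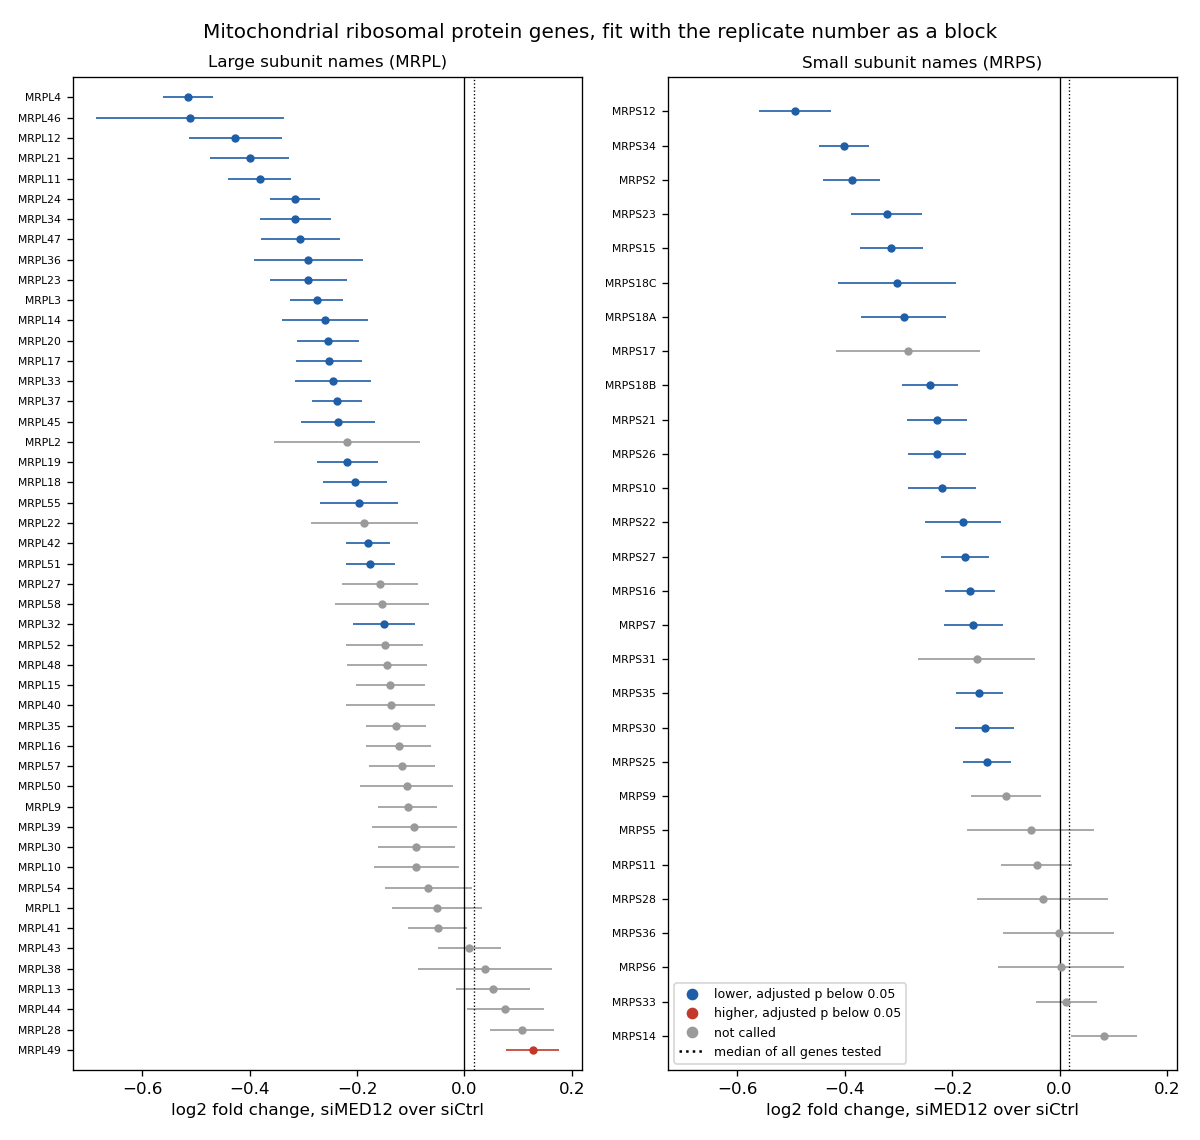
Log2 fold change (siMED12 over siCtrl, x axis) of each member tested, in the blocked fit, with its standard error as a bar. Members called lower (blue, 41), called higher (red, MRPL49) and not called (grey, 34) are shown for MRPL names on the left and MRPS names on the right, and the dotted line marks the median of all genes tested at 0.018.

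The largest decrease was that of MRPL4 (ENSG00000105364, chr19:10251901-10260055, plus strand, GRCh38), whose protein reaches into the wall of the exit tunnel of the large subunit. Its level was 139.9, 155.9 and 149.3 CPM in siCtrl and at 97.8, 109.8 and 103.8 CPM in siMED12. All siMED12 libraries lay below all siCtrl libraries, and the pairs differed by -30.1%, -29.6% and -30.4%. Its log2 fold change was -0.51 (SE 0.09, adjusted p = 0.0539) when treatment alone was fitted and -0.52 (SE 0.05, adjusted p = 2.21e-11) in the blocked fit, and MRPL4 was the member closest to the threshold without the block. Of the exonic bases of MRPL4, 21.3% are also covered by exons on the opposite strand, of LIMASI and an unnamed gene.

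MRPS12 (ENSG00000128626, chr19:38930944-38933168, plus strand) encodes the homolog of bacterial S12, a protein of the decoding centre of the small subunit. It was measured at 60.7, 67.4 and 49.6 CPM in siCtrl and at 42.1, 44.2 and 39.4 CPM in siMED12, again without overlap. The third pair showed the smallest difference, -20.4%, beside -30.7% and -34.4% in the others. The log2 fold change was -0.49 in the blocked fit (SE 0.07, adjusted p = 1.57e-07), and the adjusted p was 0.130 without the block. No other annotated exon overlaps this gene.

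MRPL12 (ENSG00000262814, chr17:81703367-81707517, plus strand) encodes the protein of the flexible stalk that recruits translation factors, and is also known to bind the mitochondrial RNA polymerase. Its CPM was 33.2, 33.7 and 33.8 in siCtrl and 27.0, 28.1 and 20.2 in siMED12. The siCtrl values were nearly equal and the siMED12 values spread more, the third library being the lowest, with pair differences of -18.8%, -16.4% and -40.4%. The log2 fold change was -0.43 (SE 0.09, adjusted p = 0.000136 with the block and 0.219 without it). Exons of an unnamed gene on the same strand cover 69.5% of its exonic bases, so its count depends on how shared reads were assigned.

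MRPS34 (ENSG00000074071, chr16:1771890-1773150, minus strand), which encodes a mitochondria-specific protein of the small subunit, had the highest level per length of all members. It was measured at 177.6, 181.9 and 160.3 CPM in siCtrl and at 127.4, 147.7 and 118.9 CPM in siMED12. The groups did not overlap, with a log2 fold change of -0.40 (SE 0.05, adjusted p = 5.63e-09 with the block, 0.135 without it). Exons of EME2 on the opposite strand cover 31.2% of its exonic bases.

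MRPL21 (ENSG00000197345, chr11:68891276-68903835, minus strand), the homolog of bacterial L21, was measured at 39.6, 43.6 and 41.4 CPM in siCtrl and at 31.3, 32.3 and 30.8 CPM in siMED12. The siMED12 libraries were nearly equal and all below siCtrl, with a log2 fold change of -0.40 (SE 0.07, adjusted p = 3.30e-05 with the block, 0.123 without it). MRPS2 (ENSG00000122140, chr9:135499984-135504673, plus strand), the homolog of bacterial S2 on the back of the small subunit, was measured at 94.6, 104.1 and 93.4 CPM in siCtrl and at 70.2, 82.9 and 70.5 CPM in siMED12. It was lower in each library of siMED12 than in any of siCtrl, by -0.39 on the log2 scale (SE 0.05, adjusted p = 2.10e-07 with the block, 0.136 without it).

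MRPL11 (ENSG00000174547, chr11:66435075-66466738, minus strand), which forms the base of the stalk, was measured at 73.4, 82.5 and 81.3 CPM in siCtrl and at 60.2, 58.9 and 62.8 CPM in siMED12. Its log2 fold change was -0.38 (SE 0.06, adjusted p = 1.50e-06 with the block, 0.110 without it), and the groups did not overlap. MRPS23 (ENSG00000181610, chr17:57834781-57850056, minus strand), a mitochondria-specific protein of the small subunit, was measured at 50.5, 51.9 and 48.5 CPM in siCtrl and at 39.7, 42.2 and 38.9 CPM in siMED12. Both groups were tight and stood apart, with a log2 fold change of -0.32 (SE 0.07, adjusted p = 0.000178 with the block, 0.169 without it).

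The only member called higher was MRPL49 (ENSG00000149792, chr11:65122183-65127371, plus strand), which encodes a mitochondria-specific protein of the large subunit. Its CPM was 110.7, 111.0 and 115.1 in siCtrl and 122.4, 126.5 and 118.9 in siMED12. The groups did not overlap but the pairs differed by 10.5%, 14.0% and 3.34% only, and the log2 fold change was 0.13 (SE 0.05, adjusted p = 0.0407 with the block, 0.511 without it). This call was lost with DESeq2's size factors (adjusted p = 0.0524) and without replicate 1 (0.267) or replicate 2 (0.403). The next highest value, named after it was seen, was that of MRPL28, at 62.2, 65.4 and 53.0 CPM in siCtrl and at 63.2, 73.8 and 57.8 CPM in siMED12 (log2 fold change 0.11, SE 0.06, adjusted p = 0.169 in the blocked fit).

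**Figure D3:**
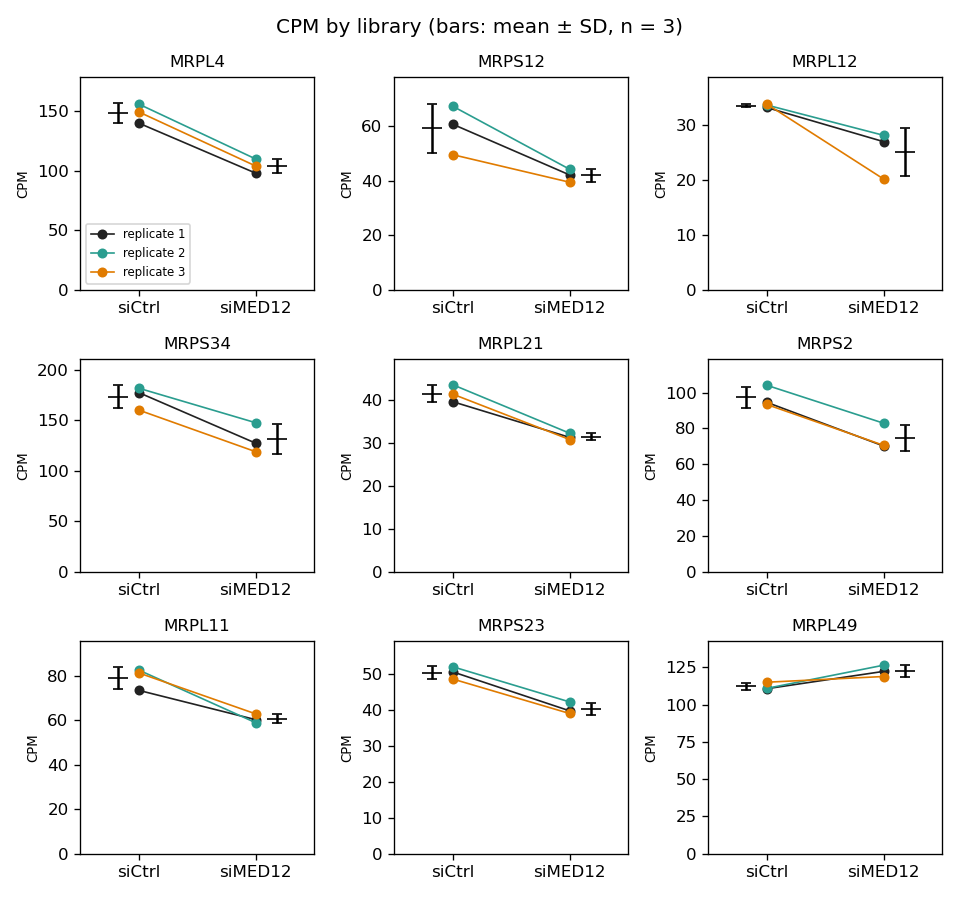
CPM of the 8 members with the largest decreases and of MRPL49, the only member called higher, in each siCtrl and siMED12 library (y axes start at 0). Points are libraries, lines join libraries of the same replicate number, and the bars beside them are the mean and SD (n = 3); in the first 8 panels every siMED12 point lies below every siCtrl point.

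The remaining members called lower ran from -0.51 for MRPL46 to -0.14 for MRPS25 on the log2 scale. MRPL46 was measured at only 8.45, 5.00 and 6.77 CPM in siCtrl and at 6.00, 4.44 and 3.69 CPM in siMED12, the groups overlapped, and its adjusted p was 0.0209 with the block. That call was lost without replicate 1 (adjusted p = 0.0932) or replicate 3 (0.221). Of the stretches of 50 bases in MRPL46, 72.1% recur in transcripts of other genes, so its count depends on how shared reads were assigned. Just inside the threshold lay MRPS22, at -0.18 (adjusted p = 0.0442), and just outside it MRPL35, at -0.13 (adjusted p = 0.0773).

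Other members fixed for description belong to the stalk, the tunnel exit and the S18 family. MRPL10, the stalk protein that carries MRPL12, was measured at 29.6, 36.2 and 34.9 CPM in siCtrl and at 29.5, 29.3 and 35.9 CPM in siMED12, and the groups overlapped (log2 fold change -0.09, SE 0.08, blocked adjusted p = 0.426). MRPL45, which lies at the tunnel exit and ties the ribosome to the inner membrane, was measured at 50.3, 48.4 and 39.4 CPM in siCtrl and at 41.5, 41.1 and 34.6 CPM in siMED12. It was lower within each pair although the groups overlapped, and both libraries of replicate 3 were the lowest of their group (log2 fold change -0.24, SE 0.07, blocked adjusted p = 0.00650). Without replicate 1 its adjusted p was 0.0511.

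The 3 genes related to bacterial S18 encode proteins that occupy different places: MRPS18C the site of bacterial S18, MRPS18B another place in the small subunit, and MRPS18A one in the large subunit. MRPS18A was measured at 35.6, 33.9 and 30.8 CPM in siCtrl and at 26.8, 29.4 and 25.9 CPM in siMED12, with no overlap (log2 fold change -0.29, SE 0.08, blocked adjusted p = 0.00364). MRPS18B, the most abundant in CPM, was measured at 116.6, 109.3 and 97.8 CPM in siCtrl and at 106.5, 86.8 and 81.3 CPM in siMED12, with overlap (-0.24, SE 0.05, blocked adjusted p = 0.000307). MRPS18C was measured at 16.1, 19.7 and 15.0 CPM in siCtrl and at 13.7, 14.4 and 12.9 CPM in siMED12 (-0.30, SE 0.11, blocked adjusted p = 0.0299).

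All 3 were called lower in the blocked fit. The call of MRPS18A was lost without replicate 1 (adjusted p = 0.0690) and that of MRPS18C without replicate 1 (0.0509) or replicate 2 (0.188). Opposite-strand exons cover 50.9% of the exonic bases of MRPS18A (RSPH9) and 40.2% of those of MRPS18C (ABRAXAS1), and none of those of MRPS18B. MRPS30, the other MRPS name that belongs to the large subunit, was measured at 88.9, 88.1 and 70.1 CPM in siCtrl and at 81.0, 78.6 and 64.5 CPM in siMED12. Its change was small (-0.14, SE 0.05, blocked adjusted p = 0.0429), and was not called when any 1 of the 3 replicate numbers was left out (adjusted p from 0.0691 to 0.0925).

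Levels can be compared between members only per length, as RPKM, which is CPM divided by the annotated exonic length in kilobases. The highest in siCtrl were MRPS34 at 158.7 ± 10.5 RPKM (SD, n = 3), MRPL41 at 149.4 ± 17.4 RPKM and MRPL51 at 112.6 ± 3.96 RPKM. MRPS34 and MRPL41, which encode mitochondria-specific proteins of the small and the large subunit, differed by less than their spread. In siMED12 they stood at 120.3 ± 13.5 and 143.9 ± 5.87 RPKM, so that MRPL41 ranked above MRPS34 there. MRPL41 was measured at 81.6, 98.6 and 80.6 CPM in siCtrl and at 80.7, 87.5 and 83.1 CPM in siMED12, with overlap (log2 fold change -0.05, SE 0.05, blocked adjusted p = 0.531).

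MRPL51, a mitochondria-specific protein of the large subunit, was measured at 150.04, 160.2 and 158.7 CPM in siCtrl and at 137.8, 138.1 and 139.2 CPM in siMED12, without overlap (-0.18, SE 0.05, blocked adjusted p = 0.00235). The lowest levels per length in siCtrl were those of MRPS22 (2.64 ± 0.25 RPKM), MRPL46 (1.05 ± 0.27 RPKM) and MRPS5 (0.987 ± 0.33 RPKM), of which the last pair do not differ beyond their spread. These 3 genes have long annotated exons in all (16385, 6402 and 13738 bases over all transcripts), which lowers a per-length level where short transcripts are the ones made. Exons of an unnamed gene on the same strand also cover 23.3% of the exonic bases of MRPS5, and 97.1% of its stretches of 50 bases recur in transcripts of other genes. For MRPL46 these values are 11.3% and 72.1%. Opposite-strand exons cover 42.8% of the exonic bases of MRPS22. On either strand, 19.6% of its stretches recur in transcripts of other genes, most often COPB2, one of the genes on the opposite strand. For MRPS22 the values can therefore count the same bases. MRPS5, the homolog of bacterial S5, had 14.9, 8.54 and 17.3 CPM in siCtrl and at 13.5, 9.36 and 15.9 CPM in siMED12 (log2 fold change -0.05, SE 0.12, blocked adjusted p = 0.776).

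By structural role, the counts and medians of the blocked fit were as follows, beside 16.2% called lower and a median of 0.018 over all genes. Large subunit proteins with bacterial homologs had 17 of 29 genes called lower and 0 higher, with a median log2 fold change of -0.22. Mitochondria-specific proteins of the large subunit had 7 of 20 called lower and 1 higher, with a median of -0.14. In the small subunit, 8 of 15 with bacterial homologs were called lower (median -0.17), as were 8 of 10 that are mitochondria-specific (median -0.18). MRPS30 and MRPS18A are counted here with the large subunit. MRPS18A and MRPS18B, both called lower, are counted as mitochondria-specific although they are related to bacterial S18. MRPL55 (-0.20, called lower) and MRPS36 (-0.0015, not called) are members by name but are counted in no group.

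Smaller assemblies of the large subunit were counted in the same way. At the rim of the exit tunnel, through which nascent chains leave, 5 of 6 genes were called lower with a median of -0.27. In the stalk, 2 of 4 were called lower (MRPL12 and MRPL11) with a median of -0.24. In the central protuberance, the crest that faces the small subunit, 2 of 7 were called lower with a median of -0.15. Differences between these groups were not tested. Without the block, 0 genes of each of these groups were called. At an unadjusted p under 0.05, 3 of 6, 2 of 4 and 1 of 7 genes of the rim, stalk and protuberance were lower, against 7.93% of all genes.

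**Figure D4:**
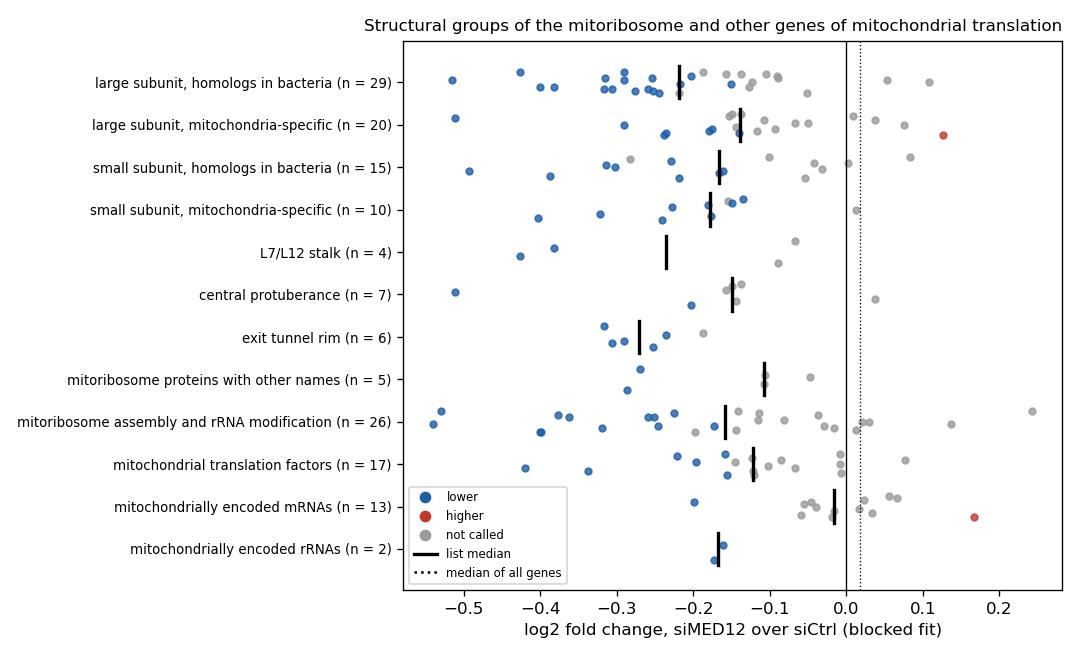
Log2 fold change (siMED12 over siCtrl, blocked fit, x axis) of every gene tested in the structural groups and in other lists of mitochondrial translation (rows, with the number tested). Points are genes, blue when called lower, red when called higher and grey when not called; thick bars are list medians, which lie left of the dotted all-gene median (0.018) in every row, and lie closest to it for mRNAs of mitochondrial DNA (-0.016).

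Proximal promoters were taken from RefSeq, as windows from 250 bases before to 50 bases after each transcription start on GRCh38.p14. Windows were at hand for 67 of the 76 members, with 1.24 windows a gene, and not for MRPL10, MRPL13, MRPL15, MRPL2, MRPL21, MRPL23, MRPL35, MRPS28 and MRPS36. The 150 bases before a RefSeq start are shown for 5 of the 8 members with the largest decreases. MRPL21 has no window, and those of MRPL4 and MRPL11 are not shown. Whether these sequences bear on the decreases was not tested. Of the 5 shown, MRPS12 and MRPS2 have 2 RefSeq starts each, and the outermost is printed. The second window of MRPS2, inside the gene, holds none of the motifs below. The windows, of which those of MRPS34 and MRPS23 reach a few bases into the Gencode gene, are chr19:38930794-38930943 (plus strand), chr17:81703217-81703366 (plus), chr16:1773135-1773284 (minus), chr9:135499815-135499964 (plus) and chr17:57850045-57850194 (minus), in this order. Capitals mark a match to one of 4 motifs, searched on both strands.
MRPS12: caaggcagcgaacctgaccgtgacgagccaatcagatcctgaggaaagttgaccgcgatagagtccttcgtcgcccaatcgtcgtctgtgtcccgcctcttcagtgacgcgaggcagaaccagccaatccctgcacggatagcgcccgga
MRPL12: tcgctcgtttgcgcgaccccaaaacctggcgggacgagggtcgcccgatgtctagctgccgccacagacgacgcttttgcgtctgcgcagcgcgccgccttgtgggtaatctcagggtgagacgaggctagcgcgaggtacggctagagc
MRPS34: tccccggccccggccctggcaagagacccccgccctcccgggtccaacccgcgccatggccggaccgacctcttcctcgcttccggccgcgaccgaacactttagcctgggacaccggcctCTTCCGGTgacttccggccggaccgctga
MRPS2: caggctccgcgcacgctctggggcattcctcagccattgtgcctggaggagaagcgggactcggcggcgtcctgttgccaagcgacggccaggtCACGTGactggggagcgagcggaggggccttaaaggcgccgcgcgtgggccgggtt
MRPS23: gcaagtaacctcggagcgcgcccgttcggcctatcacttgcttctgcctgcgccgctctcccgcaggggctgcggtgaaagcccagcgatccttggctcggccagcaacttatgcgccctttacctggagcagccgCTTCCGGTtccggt
The motifs were the E-box CACGTG, which MYC binds, and cores of the sites of the ETS family (ACCGGAAG), NRF1 (GCGCATGC) and YY1 (AAGATGGCG), factors known to bind promoters of nuclear genes for mitochondrial proteins. In the stretches shown, the capitals are an ETS core on the opposite strand in MRPS34 and MRPS23 and an E-box in MRPS2. MRPS12 and MRPL12 hold none of the 4 in the full window, and neither do MRPL4 and MRPL11.

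Over the 67 members, an E-box was found in 9 (13.4%, against 12.3% of tested genes with a window and 8.77% of all genes with a window). An ETS core was found in 10 (14.9%, against 4.65% and 2.62%), an NRF1 core in 6 (8.96%, against 6.26% and 3.68%) and a YY1 core in 12 (17.9%, against 4.37% and 2.14%). Any of the 4 was found in 29 (43.3%, against 24.6% and 15.6%). Tested genes had 1.44 windows each and all genes 1.29, more than the members, and a gene was counted if any of its windows held the letters. Among the members called lower in the blocked fit that have a window, 6 of 39 held an E-box (15.4%), 6 an ETS core (15.4%), 4 an NRF1 core (10.3%) and 8 a YY1 core (20.5%). The median log2 fold change was -0.24 over members with an E-box and -0.16 over those without, and for ETS -0.20 and -0.18, for NRF1 -0.21 and -0.18 and for YY1 -0.18 and -0.18. MRPL49, the only member called higher, also holds an E-box in its windows and none of the other motifs. All of these are matches of letters, not sites shown to be bound.

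Several members differed more between replicate numbers than between groups. MRPS25, a mitochondria-specific protein of the small subunit, was measured at 121, 131 and 238 CPM in siCtrl and at 113, 115 and 219.6 CPM in siMED12. Both libraries of replicate 3 were far above the rest, while siMED12 was lower within each pair by -6.64%, -12.5% and -7.78%. MRPL38, in the central protuberance, was measured at 7.38, 8.73 and 22.4 CPM in siCtrl and at 8.67, 10.0 and 19.4 CPM in siMED12, and MRPL32 at 64.1, 59.3 and 90.6 CPM and at 55.7, 55.3 and 81.9 CPM. These 3 were named after their values were seen.

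Over the members as a whole the shift between numbers was small, with a median log2 ratio of replicate 3 to replicate 1 of -0.058 in siCtrl and -0.057 in siMED12. Deviations of the 76 members from their group means correlated at 0.789, 0.655 and 0.827 within the 3 pairs, and at -0.664 to 0.155 for all other combinations of a siCtrl and a siMED12 library. These correlations are across genes of a few libraries and are given as a description. The 3 pairs gave median log2 ratios of siMED12 to siCtrl of -0.16, -0.21 and -0.17 over the members and of 0.017, -0.00035 and 0.035 over all genes.

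**Figure D5:**
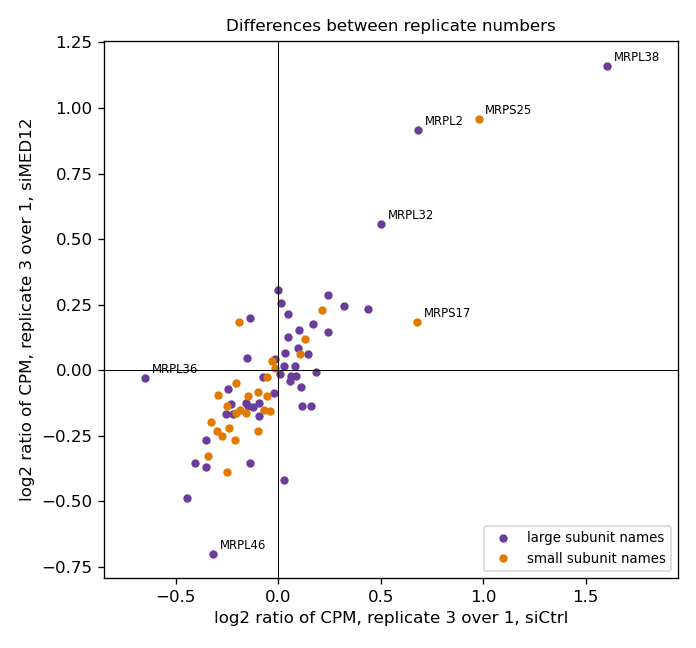
Log2 ratio of CPM in replicate 3 to CPM in replicate 1, in siCtrl (x axis) and siMED12 (y axis), for each member tested (large subunit names in purple, small subunit names in orange). Some members high in replicate 3 of one group were high in replicate 3 of the other, such as MRPS25 (0.98 and 0.96) and MRPL38 (1.60 and 1.16). Others changed sign between the groups, such as MRPL34 (0.16 and -0.13) and MRPS31 (-0.19 and 0.18).

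Of 5 mitochondrial ribosomal proteins that carry other names, 2 were called lower and 0 higher in the blocked fit, against 16.2% and 17.1% of all genes. AURKAIP1, a protein of the small subunit, was measured at 143.3, 157.3 and 132.3 CPM in siCtrl and at 118.9, 126.7 and 109.2 CPM in siMED12, without overlap (log2 fold change -0.29, SE 0.05, blocked adjusted p = 5.40e-06). GADD45GIP1, a protein of the large subunit, was measured at 63.8, 71.2 and 66.3 CPM in siCtrl and at 56.6, 57.9 and 52.5 CPM in siMED12 (-0.27, SE 0.06, blocked adjusted p = 0.000458). The other 3 were not called: DAP3, the GTP-binding protein of the small subunit, at -0.11, CHCHD1 at -0.11 and PTCD3 at -0.05, with blocked adjusted p of 0.151, 0.289 and 0.485.

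Factors that build the mitochondrial ribosome and modify its rRNA had 12 of 26 genes called lower and 0 higher in the blocked fit, against 16.2% and 17.1% of all genes, with a median of -0.16. MRM1, which methylates the large rRNA, was measured at 15.0, 18.3 and 16.03 CPM in siCtrl and at 13.3, 9.998 and 10.6 CPM in siMED12 (-0.54, SE 0.12, blocked adjusted p = 0.000622). ERAL1, a GTPase that binds the small rRNA, was measured at 135.7, 149.5 and 125.8 CPM in siCtrl and at 95.4, 99.3 and 89.7 CPM in siMED12, without overlap (-0.53, SE 0.05, blocked adjusted p = 2.57e-11, and 0.0616 without the block). Both were as far down as the lowest ribosomal protein genes.

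Factors of mitochondrial translation had 6 of 17 genes called lower and 0 higher, against the same 16.2% and 17.1%, with a median of -0.12. SLIRP, which stabilises mitochondrial mRNAs, was measured at 46.8, 50.5 and 51.8 CPM in siCtrl and at 33.2, 38.9 and 39.4 CPM in siMED12 (-0.42, SE 0.07, blocked adjusted p = 4.93e-06). TUFM, the elongation factor that brings aminoacyl-tRNA to the ribosome, was measured at 369.9, 385.9 and 358.8 CPM in siCtrl and at 286.9, 317.4 and 278.5 CPM in siMED12 (-0.34, SE 0.04, blocked adjusted p = 6.82e-09). In both genes every siMED12 library was below every siCtrl library.

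Regulators of mitochondrial gene expression had 6 of 12 genes called lower and 0 higher, again beside 16.2% and 17.1% of all genes. MYC, a transcription factor of growth genes, was measured at 216.9, 51.7 and 24.3 CPM in siCtrl and at 92.5, 21.3 and 13.02 CPM in siMED12. Its level fell within each pair but varied more between replicate numbers than between groups (-1.18, SE 0.07, blocked adjusted p = 3.91e-17, and 0.586 without the block). ESRRA, a nuclear receptor that activates genes of mitochondrial energy metabolism, was measured at 164.0, 194.2 and 175.4 CPM in siCtrl and at 125.4, 142.0 and 136.9 CPM in siMED12 (-0.40, SE 0.05, blocked adjusted p = 3.30e-09). The other 6 were not called: NRF1 and YY1, whose motifs were counted above, GABPA, GABPB1, TEFM and TFAM. Their log2 fold changes were -0.0099, -0.0021, 0.056, -0.010, -0.075 and -0.11 in this order (blocked adjusted p from 0.153 to 0.979).

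The rRNAs and mRNAs of mitochondrial DNA did not share one direction. MT-RNR1 and MT-RNR2, the rRNAs of the small and the large subunit, were both called lower in the blocked fit (-0.17, SE 0.04, adjusted p = 0.00115, and -0.16, SE 0.03, adjusted p = 0.000117). MT-RNR1 was measured at 1108, 1703 and 2359.6 CPM in siCtrl and at 1145, 1375 and 1978 CPM in siMED12, and so was higher in siMED12 in the first pair (3.38%) and lower in the others (-19.3% and -16.2%). MT-RNR2 was measured at 6605, 11944 and 16405 CPM in siCtrl and at 6379, 10063 and 14433 CPM in siMED12, lower in all 3 pairs. In both rRNAs the groups overlapped and the replicate numbers differed by more. Of the 13 mRNAs, beside 16.2% and 17.1% of all genes, 1 was called lower (MT-ND6, -0.20, adjusted p = 0.00224) and 1 higher (MT-ND5, 0.17, adjusted p = 0.000177), with a median of -0.016. Capture by poly(A) tails limits what these levels say, since MT-ND6 mRNA and the rRNAs carry short tails or none. Without the block, 0 genes of these companion lists were called in either direction. At an unadjusted p under 0.05, 2 of 5 other mitochondrial ribosomal proteins and 5 of 26 building factors were lower. So were 2 of 17 translation factors and 4 of 12 regulators. These lists held 0 higher genes, and over all genes 7.93% were lower and 7.65% higher.

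Many members lie close to other genes, so counts can be shared. Exons of 39 members tested overlap exons of another annotated gene on either strand, and those of 37 do not. Among the 37 without overlap, 18 (48.6%) were called lower and 0 higher in the blocked fit, with a median of -0.15 and 36 values below 0, while 16.2% of all genes were called lower and 17.1% higher. Of the 39 with overlap, 23 (59%) were called lower and 1 higher, with a median of -0.18. Rows of 81 pseudogenes of these families held 181 to 235 counts a library, or 0.215% to 0.294% of the members' counts. MRPL53, which had no counts, shares 72.8% of its exonic bases with CCDC142 on the same strand, and 90.3% of the stretches of 50 bases in MRPS24 recur in the read-through gene URGCP-MRPS24, so their values say nothing of whether these 2 genes were expressed.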

How the data were processed

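Per the labels and the methods of the study, the authors captured poly(A) RNA, had strand-specific libraries sequenced, and aligned and counted reads with Rsubread (GRCh38.p13, Gencode release 43). The deposited counts are raw reads per gene. Strand and multi-mapping settings are not given in the sources used here, so reads of overlapping genes or pseudogenes could be lost or reassigned. The deposited log2 CPM values differed from values recomputed here by at most 4.96e-09 (prior count 2) and cover the genes tested.

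Counts of 2 groups of 3 libraries were tested with edgeR 4.0.16 in R 4.3.3 (expression filter, TMM, two-sided quasi-likelihood F-test, Benjamini-Hochberg over all genes, threshold 0.05), with treatment alone, as the methods state no blocking term (a figure legend of the study calls a heatmap of these cells corrected for batch, without naming the batch), and again with a block term for replicate number. Labels give both groups numbers 1 to 3. Deviations from group means correlated at 0.532, 0.373 and 0.643 between same-numbered libraries and at -0.460 to -0.0233 otherwise, which was taken as pairing. No libraries agreed within sampling noise.

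The scripts were tested on simulated data. Lengths, overlaps and coordinates came from Gencode 44 (99.9% of identifiers matched). Named genes were 10 fixed members, members called without the block, up to 8 decreases and 5 increases, the largest among members called in the blocked fit with a mean of at least 10 CPM (only MRPL49 met this for increases), the 3 highest and 3 lowest per length in siCtrl, the neighbours of the threshold, and up to 2 genes a direction in each companion list plus 5 fixed. Members and lists were chosen with earlier results of these data known. Alternatives were other scalings, filters and tests (DESeq2 1.42.0, limma 3.58.1), a GC and length correction, leaving out mitochondrially encoded genes, and leaving out libraries.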

Additional observations from a re-analysis of the deposited data

How the results depend on the processing

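The lower median of the members kept its direction in every fit run. Scaling to library size alone moved the median of all genes from 0.018 to 0.059 without the block and to 0.060 with it, and the members' median then was -0.13 (MRPL -0.12, MRPS -0.13) without the block and -0.13 (MRPL -0.12, MRPS -0.13) with it. The difference between the members' median and that of all genes stayed between -0.16 and -0.21 in all fits. Leaving out 1 library gave medians from -0.20 to -0.17 without the block (MRPL -0.21 to -0.17, MRPS -0.22 to -0.15), and leaving out 1 replicate number from -0.20 to -0.17 with it (MRPL -0.19 to -0.17, MRPS -0.21 to -0.17). A GC and length correction with the block gave -0.21 for MRPS. Causes of these shifts were not tested.

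Without the block, 0 members were called in either direction, also without any 1 library. Exceptions were the count without an expression filter, 1 lower (MRPL4, with 0.852% of all genes), DESeq2's Wald test, 6 lower (MRPL4, MRPS12, MRPL11, MRPL24, MRPL21 and MRPS34, with 3.42% of genes given an adjusted p), and the fit with the replicate block, 41 lower and 1 higher. With the block, the count called lower was 32 with the Wald test (14.3% of genes given an adjusted p). It was 33 with library size alone (13.5% of all genes) and 37 without a filter (8.09%). Without 1 replicate number it was 32 to 37 (14.2% to 14.5% of all genes). Of the 41, 31 were called lower in all 8 blocked fits of 6 libraries and 27 also without each replicate number. The share of all genes that did so is not given here, so these counts have no background. Restricting the blocked count to members that share no exonic base, chosen after seeing the data, left 18 lower and 0 higher because fewer genes are counted. The count called higher was 0 with DESeq2 size factors, the Wald test, no filter or no mitochondrially encoded genes, 2 (MRPL49 and MRPL28) with library size alone or the GC and length correction, and 0 to 1 without 1 replicate number.

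Of the members named, MRPL41 turned to 0.047 without siCtrl replicate 2 (no block) and to 0.069 under the GC and length correction (block), and MRPS5 turned to 0.14 without siCtrl replicate 3 and 0.095 without siMED12 replicate 2, its values without 1 library running from -0.31 to 0.14 (no block). None of these was called. With the block, 26 of the alternatives for named members lost a call and 2 gained one, both for MRPL35, and those lost belonged to MRPS18A, MRPS18C, MRPS30, MRPL45, MRPL49, MRPS22 and MRPL46. With 3 libraries a group and log2 changes under 0.2 in most members, calls near the threshold depend on these choices.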
